A study of Mus musculus with 20 samples.

Results

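Itpr1, Homer3, Inpp5a, Gnaq and Gna11 are 5 genes of the cascade that runs from metabotropic glutamate receptors to the inositol trisphosphate (IP3) receptor in Purkinje cells (PCs). They were taken as a named list and matched by symbol to the Ensembl identifiers of the count table, and all 5 were found among its 55401 genes. The cerebellar RNA of 20 mice was sequenced, 1 cerebellum per library, and the number of reads per gene was compared between genotypes, vectors and time points. SCA7 mice carry an ataxin-7 allele with an expanded CAG repeat (SCA7 140Q/5Q knock-in), and WT mice are their controls, both on the C57BL/6J strain. The vector AAV-shA4 makes an shRNA directed at CAG repeats, and AAV-shSCR makes a scrambled shRNA.

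The early libraries, labelled 9w, are those of 3 untreated WT mice and 3 WT mice that received AAV-shA4. The late libraries, labelled 25w, are those of 4 untreated WT mice, 5 SCA7 mice that received AAV-shSCR and 5 that received AAV-shA4. Both vectors were AAV of the PHP.eB serotype, injected into the blood of young mice, with eGFP under the CMV promoter and the shRNA under the H1 promoter. The study found most PCs but few granule cells transduced, and untreated mice received saline. No late WT mouse received a vector and no SCA7 mouse went without one, so genotype and vector cannot be told apart where SCA7 mice are set against WT mice. The day on which the count of weeks starts is not in the labels. The paper counts weeks from the injection, and for the early AAV-shA4-treated WT mice its number equals that of the label. These early mice were therefore older than the number in their label. For the late SCA7 mice the paper's number is lower than that of the label.

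In PCs, glutamate from parallel fibres activates metabotropic receptors, whose signal passes through the G protein alpha subunits Gq (encoded by Gnaq) and G11 (Gna11) to phospholipase C beta. Phospholipase C cleaves the membrane lipid PIP2 into diacylglycerol and IP3, and IP3 opens the receptor encoded by Itpr1, which releases calcium from the endoplasmic reticulum. Homer3 is a scaffold of the PC postsynapse that links glutamate receptors to the IP3 receptor, and Inpp5a is a phosphatase that ends the signal by removing a phosphate from IP3. Loss or autoimmunity of several of these components is a known cause of ataxia.

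The genes lie on 5 chromosomes of the mouse genome (GRCm38). Itpr1 (ENSMUSG00000030102) spans chr6:108213096-108551109 on the plus strand, Homer3 (ENSMUSG00000003573) chr8:70282827-70294361 on the plus strand and Inpp5a (ENSMUSG00000025477) chr7:139389109-139579652 on the plus strand. Gnaq (ENSMUSG00000024639) spans chr19:16132831-16387463 on the plus strand and Gna11 (ENSMUSG00000034781) chr10:81528724-81545190 on the minus strand. As the shRNA of AAV-shA4 is directed at CAG repeats, the longest run of CAG in the GENCODE transcripts of each gene is shown, with the run in capitals and 9 bases on each side. It is in the coding sequence of Itpr1 (chr6:108354666-108354671) and Gna11 (chr10:81532470-81532475), in the 5 prime UTR of Homer3 (chr8:70282964-70282969) and in the 3 prime UTR of Inpp5a (chr7:139578601-139578606) and Gnaq (chr19:16384205-16384210).
Itpr1: tctacatgcCAGCAGtcatcagct
Homer3: gtagctggcCAGCAGggggcgctg
Inpp5a: tctaacagaCAGCAGagcgcctgt
Gnaq: cttcagccaCAGCAGgattgttaa
Gna11: ctgcccaccCAGCAGgatgtgctg
In each of the 5 genes the longest run was 2 CAG, which 80.8% of 21951 genes reach or exceed, so none of them holds a long CAG repeat in this reference.

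The promoters of the genes that fell most in SCA7 mice, Homer3 and Inpp5a, can be set beside those of the G protein genes, which changed less. RefSeq (GRCm38.p6) gives 250 bases before and 50 after its own gene start, which is not always the start of the span given above. The Gnaq window ends before the Gnaq span begins, and the Homer3 window lies mostly inside the Homer3 span. The windows are Homer3 at chr8:70282749-70283048 (plus strand), Inpp5a at chr7:139388859-139389158 (plus strand), Gnaq at chr19:16132434-16132733 (plus strand) and Gna11 at chr10:81545113-81545412 (minus strand). Capitals mark the GC box GGGCGG, a site of Sp family factors, and AGGTCA, the half-site of ROR nuclear receptors, on either strand (CCGCCC and TGACCT on the other).
Homer3: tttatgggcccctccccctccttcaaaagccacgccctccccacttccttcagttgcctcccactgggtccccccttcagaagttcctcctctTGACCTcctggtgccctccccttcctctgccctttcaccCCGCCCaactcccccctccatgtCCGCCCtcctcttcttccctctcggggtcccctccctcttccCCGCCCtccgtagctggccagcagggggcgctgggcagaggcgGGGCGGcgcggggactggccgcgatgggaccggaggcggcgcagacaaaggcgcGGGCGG
Inpp5a: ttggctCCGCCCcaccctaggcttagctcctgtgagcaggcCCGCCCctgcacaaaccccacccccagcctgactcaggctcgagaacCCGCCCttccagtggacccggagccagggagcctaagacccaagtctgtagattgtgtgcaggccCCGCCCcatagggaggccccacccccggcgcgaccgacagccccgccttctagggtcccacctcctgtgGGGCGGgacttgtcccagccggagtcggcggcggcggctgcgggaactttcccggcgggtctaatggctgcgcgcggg
Gnaq: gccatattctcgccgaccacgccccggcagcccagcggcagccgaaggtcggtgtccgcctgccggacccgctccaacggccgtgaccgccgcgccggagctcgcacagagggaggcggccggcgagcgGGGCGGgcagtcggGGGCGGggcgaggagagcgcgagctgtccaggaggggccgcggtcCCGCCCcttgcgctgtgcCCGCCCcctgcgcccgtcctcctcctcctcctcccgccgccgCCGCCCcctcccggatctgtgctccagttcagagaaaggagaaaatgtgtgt
Gna11: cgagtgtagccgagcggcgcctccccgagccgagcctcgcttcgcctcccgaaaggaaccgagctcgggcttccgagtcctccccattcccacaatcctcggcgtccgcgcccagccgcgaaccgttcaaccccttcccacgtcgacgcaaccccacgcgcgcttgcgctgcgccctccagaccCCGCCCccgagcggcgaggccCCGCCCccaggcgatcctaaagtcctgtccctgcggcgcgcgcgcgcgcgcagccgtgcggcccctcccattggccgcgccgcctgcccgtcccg
The Homer3, Inpp5a and Gnaq windows each hold 5 GC boxes and that of Gna11 holds 2, while 35.7% of 32851 promoter windows of this length hold at least 1. That share does not tell how common 2 or 5 GC boxes are. The ROR half-site is in the Homer3 window (1 match) and in none of the other 3, and 16.3% of all windows hold it. Their GC content is 69.7%, 70.3%, 75.0% and 75.0%, against a median of 52.7%. A second Inpp5a window holds neither motif. These matches describe letters and not binding, and the number of GC boxes did not separate the genes that fell most from Gnaq.

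The libraries hold 31465586 to 54570503 reads counted on genes. Levels are given as CPM, the reads of a gene scaled by TMM as if all libraries had equal size, and the word called is used for genes that had both an adjusted p under 0.05 and a change of more than 1.3-fold up or down. Markers of PCs (7 genes) summed to 1669 to 2857 CPM and those of granule cells (6 genes) to 4426 to 6213 CPM over the 20 libraries. Markers of the choroid plexus (3 genes) ranged from 24.96 to 3724 CPM, and the widest range was within the AAV-shA4-treated SCA7 mice, with 24.96 to 3216 CPM. All 5 genes were deeply covered, with 4772 to 7478 reads per library for Gna11 and 108224 to 228602 for Itpr1 at the extremes. Whether reads were counted by strand is not stated, and Ddx49 overlaps the end of Homer3 on the other strand (25.7 to 33.3 CPM) as Nkx6-2 overlaps that of Inpp5a (6.71 to 10.9 CPM), both far below the levels of Homer3 and Inpp5a.

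Compared with untreated WT mice at 25w, AAV-shSCR-treated SCA7 mice had less RNA of the IP3 receptor, its scaffold and the IP3 phosphatase. Of the G protein subunits, Gnaq was slightly lower, past the adjusted p but not the fold limit, and Gna11 passed neither. Itpr1 fell by 25.1%, Homer3 fell by 33.7% and Inpp5a fell by 32.0%. Gnaq differed by −9.53% and Gna11 by 2.73%. Hence 3 of 5 genes were called, all lower, against 4.02% of 14862 genes called in either direction and 2.66% called lower. The 5 genes were chosen with earlier results of these data known, so their share is not that of a neutral sample. Of the 5 genes, 4 had groups that did not overlap, as had 16.8% of all genes tested. In bulk tissue, fewer cells of a type and less RNA per cell cannot be told apart.

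The level of Itpr1 was 4287, 4776, 4446 and 4399 CPM in untreated WT mice at 25w. In AAV-shSCR-treated SCA7 mice it was 3413, 3305, 3396, 3140 and 3512 CPM. Every SCA7 mouse lay below every WT mouse, and the highest SCA7 value was well under the lowest WT value. WT mice averaged 4477 ± 210 CPM (SD, n = 4), and the SCA7 group averaged 3353 ± 140 CPM (SD, n = 5). On the log2 scale this was a difference of −0.42 (standard error 0.047), and the adjusted p was 9.18e-06 in the quasi-likelihood test of edgeR, corrected over all genes tested.

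Homer3 stood at 469, 532, 478 and 514 CPM in the untreated WT mice and at 365, 324, 335, 303 and 326 CPM in AAV-shSCR-treated SCA7 mice. The groups did not overlap, and this scaffold gene had the largest relative loss of the 5. On the log2 scale the difference was −0.59 (standard error 0.051, adjusted p = 4.52e-07 in the same edgeR test). For Inpp5a, WT mice had 554, 644, 587 and 591 CPM, and AAV-shSCR-treated SCA7 mice had 419, 404, 413, 367 and 415 CPM. Again no SCA7 mouse reached the lowest WT mouse, and replicate 4 of the SCA7 group lay apart from the other 4 on the low side. The log2 fold change of Inpp5a was −0.56 (standard error 0.050, adjusted p = 7.22e-07 in the same edgeR test).

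For Gnaq, untreated WT mice had 229, 237, 238 and 240 CPM and AAV-shSCR-treated SCA7 mice 215, 211, 218, 209 and 214 CPM. These groups did not overlap either, but the gap was small. The log2 fold change of Gnaq was −0.14 (standard error 0.031), which passed the adjusted p (0.0039 in the same edgeR test) and missed the fold limit. Gna11 had 140, 139, 134 and 142 CPM in WT mice and 148, 144, 138, 139 and 144 CPM in SCA7 mice, with overlapping groups. Its log2 fold change was 0.039, with a 95% confidence interval of −0.022 to 0.10 (adjusted p = 0.402, same test).

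**Figure D1:**
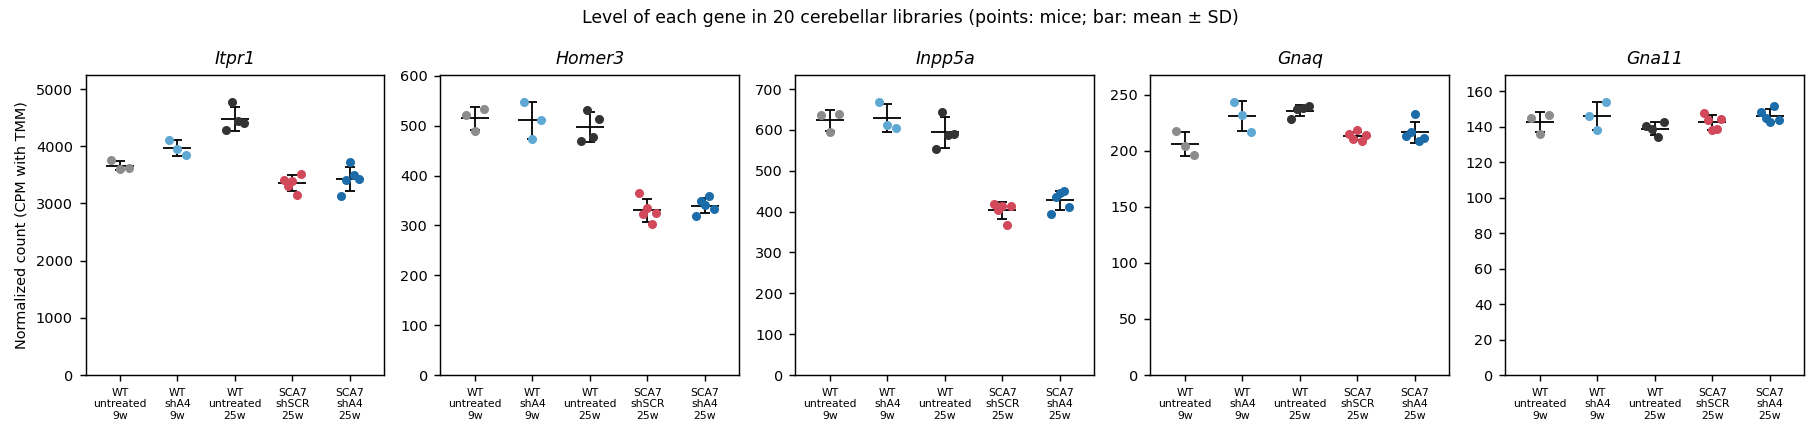
Normalized counts (CPM with TMM, y axes from 0) of the 5 genes in each of the 20 mice (points), with the mean and SD of each group (bars). Itpr1, Homer3 and Inpp5a are lower in both SCA7 groups than in untreated WT mice at 25w with no overlap, and Gna11 stays between 134 and 154 CPM in all groups.

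AAV-shA4-treated SCA7 mice differed from the same 4 untreated WT mice in the same 3 genes. Itpr1 fell by 23.3%, Homer3 fell by 31.8% and Inpp5a fell by 27.9%. Among all genes 3.45% were called in this comparison, 2.27% as lower, and the groups of 13.4% did not overlap. Since both SCA7 groups were set against the same WT mice, the 2 comparisons are not independent of each other, and only the direct comparison of the SCA7 groups tests a difference between the shRNAs.

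Itpr1 had 3128, 3401, 3716, 3493 and 3424 CPM in AAV-shA4-treated SCA7 mice, all below the 4 WT mice. Its log2 fold change against WT mice was −0.383 (standard error 0.047, adjusted p = 2.51e-05 in edgeR's quasi-likelihood test), only just past the fold limit of 0.379 on the log2 scale. Leaving out 1 library ended the call by fold in 2 cases, at −0.351 without AAV-shA4-treated replicate 1 and at −0.350 without untreated WT replicate 2, while the adjusted p stayed at or below 0.000171 in both. Homer3 had 319, 349, 340, 359 and 333 CPM and Inpp5a 395, 437, 444, 452 and 412 CPM, again with no overlap with WT mice. The log2 fold changes were −0.55 for Homer3 (adjusted p = 1.16e-06, edgeR) and −0.47 for Inpp5a (adjusted p = 5.35e-06, edgeR).

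Gnaq had 213, 217, 232, 209 and 211 CPM in AAV-shA4-treated SCA7 mice, and replicate 3 overlapped with the WT mice. The log2 fold change against WT mice was −0.12 for Gnaq, which passed the adjusted p (0.0126, edgeR) but not the fold limit. Gna11 had 148, 145, 142, 151 and 144 CPM. All 5 values were above the highest WT value, by less than 1 CPM in the lowest of them, and its log2 fold change of 0.075 did not pass the adjusted p (0.101, edgeR).

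The direct comparison of the vectors in SCA7 mice called none of the 5 genes, and the SCA7 groups overlapped in all 5. Among all 14862 genes, 0 were called (0%) by edgeR at these limits, 1222 had an unadjusted p under 0.05, and DESeq2 called 5. The log2 fold change of AAV-shA4 over AAV-shSCR was 0.033 for Itpr1, with a 95% confidence interval of −0.060 to 0.13. It was 0.040 for Homer3 (−0.062 to 0.14) and 0.084 for Inpp5a (−0.016 to 0.18). It was 0.021 for Gnaq (−0.040 to 0.083) and 0.036 for Gna11 (−0.022 to 0.093). Every interval includes 0, and that of Inpp5a reaches 0.18, beside a difference of −0.56 between AAV-shSCR-treated SCA7 and WT mice. The smallest adjusted p of the 5 was 0.649 for Inpp5a (edgeR).

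**Figure D2:**
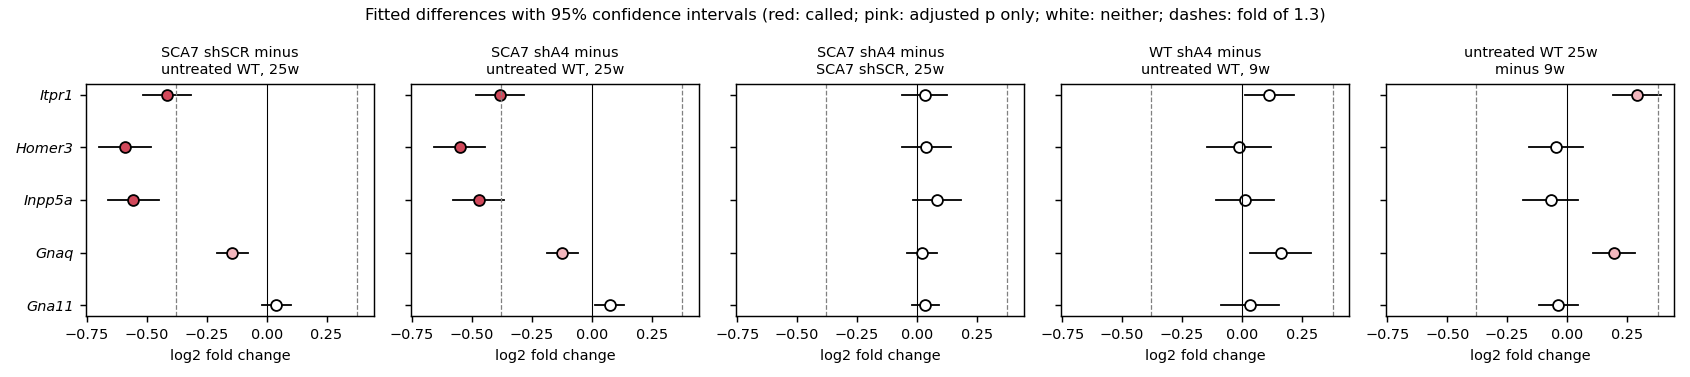
Log2 fold changes of the 5 genes in the 5 comparisons (points) with 95% confidence intervals (lines), where dashed lines mark a fold change of 1.3. Itpr1, Homer3 and Inpp5a are called lower in both comparisons of SCA7 with WT mice, and no gene is called in the other 3.

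In WT mice at 9w, none of the 5 genes was called with AAV-shA4, beside 0.0543% of 14733 genes called (8 genes). Itpr1 had 4110, 3948 and 3845 CPM with AAV-shA4 and 3755, 3597 and 3628 CPM without. The treated mice were all higher, by 0.11 on the log2 scale, at an unadjusted p of 0.0328 and an adjusted p of 0.402 in edgeR's test. Here 16.02% of all genes had groups without overlap. Gnaq had 244, 232 and 217 CPM with AAV-shA4 and 218, 204 and 196 CPM without, with a log2 fold change of 0.16 and an adjusted p of 0.354 (edgeR), and the groups overlapped. Homer3 (548, 474 and 512 CPM against 521, 490 and 533 CPM) and Inpp5a (669, 613 and 606 CPM against 636, 594 and 639 CPM) had fitted log2 fold changes of −0.012 and 0.012. Their signs changed when single libraries were left out.

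Between untreated WT mice at 25w and at 9w, none of the 5 genes was called, beside 5.14% of 14875 genes. The IP3 receptor and Gnaq passed the adjusted p but not the fold limit, both higher at 25w. Of all genes 23.0% passed the adjusted p in either direction, with those that also passed the fold limit included. For Itpr1 the difference on the log2 scale was 0.29 (standard error 0.046, adjusted p = 0.00228, edgeR), and all 4 late mice were above all 3 early mice. For Gnaq it was 0.20 (standard error 0.040, adjusted p = 0.00764, edgeR), also without overlap. Groups without overlap were common here, at 33.8% of all genes tested, so this trait of 2 of the 5 genes is near the background. Homer3, Inpp5a and Gna11 had log2 fold changes of −0.046, −0.068 and −0.036, none of which passed. The labels name no batch, and whether the libraries of both time points were prepared together is not given in the sources used here.

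The order of the 5 conditions therefore differed between genes. Itpr1 was lowest in AAV-shSCR-treated SCA7 mice (3353 CPM on average), followed by AAV-shA4-treated SCA7 mice (3433 CPM), untreated WT mice at 9w (3660 CPM), AAV-shA4-treated WT mice at 9w (3968 CPM) and untreated WT mice at 25w (4477 CPM). The 2 SCA7 groups overlapped with each other, and AAV-shA4-treated SCA7 mice overlapped with untreated WT mice at 9w. All 5 AAV-shSCR-treated SCA7 mice lay below all 3 untreated WT mice at 9w. The SCA7 groups at 25w were not tested against the WT groups at 9w.

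Homer3 and Inpp5a fell into 2 tiers. For Homer3 the SCA7 groups averaged 330 and 340 CPM and the 3 WT groups 498 to 515 CPM, and only the step between the tiers exceeded the ranges of its neighbours. For Inpp5a the SCA7 groups averaged 404 and 428 CPM and the WT groups 594 to 629 CPM, with the same single step. Gnaq ran from 206 CPM in untreated WT mice at 9w to 236 CPM in those at 25w, and each group overlapped with the next. Gna11 ran from 139 to 146 CPM with overlap at every step.

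Per kilobase of the longest annotated transcript, Itpr1 was the most abundant of the 5 in untreated WT mice at 25w, at 454 CPM per kb. Inpp5a followed at 210 CPM per kb and Homer3 at 191 CPM per kb, and Gnaq and Gna11 stood at 41.8 and 40.7 CPM per kb. Per kilobase of all annotated exons the levels were 244 for Itpr1, 145 for Homer3, 105 for Inpp5a, 38.1 for Gnaq and 33.9 for Gna11, so the order of Homer3 and Inpp5a depends on the length used. The other IP3 receptor genes were far below Itpr1 per kb of the longest transcript, with 2.32 for Itpr2 and 5.95 for Itpr3, and so were the other Homer genes beside Homer3, with 7.96 for Homer1 and 2.49 for Homer2.

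A list of 39 other genes of the pathway, of which 38 could be tested, was set beside the 5. In AAV-shSCR-treated SCA7 mice 7 of the 38 were called lower and 0 higher, against 2.66% of all genes called lower. With no fold limit 13 passed the adjusted p, the called genes included, all lower, beside 15.5% of all genes in either direction. The median log2 fold change of the 38 was −0.067, beside 0.0017 over all genes tested. In AAV-shA4-treated SCA7 mice 7 were again called lower and 0 higher. With no fold limit 12 passed the adjusted p, the called genes included, all lower, beside 13.6% of all genes. The median of the 38 was −0.093, beside 0.0061 over all genes. The list includes genes chosen because they are known for PCs, and it was made with earlier results of these data known. Its counts are therefore not those of a neutral sample of the pathway.

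Of the 4 scaffold genes on the list, 1 was called and 2 passed the adjusted p with either vector. Shank2, a postsynaptic scaffold that binds Homer proteins, was called at −0.51 with AAV-shSCR and −0.47 with AAV-shA4, both against WT mice. The Homer relatives did not pass with either vector, at −0.12 and 0.0071 for Homer1 and at 0.051 and 0.19 for Homer2.

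Between the G protein and IP3, Rgs8 and Plcb3 had the largest losses. Rgs8, which speeds the switching-off of Gq signals, had 1558, 1804, 1713 and 1664 CPM in untreated WT mice and 1006, 971, 1013, 908 and 1023 CPM in AAV-shSCR-treated SCA7 mice, which is −0.78 on the log2 scale (adjusted p = 1.24e-08, edgeR). Plcb3, a phospholipase C activated by Gq, had 95.6, 99.2, 85.0 and 92.9 CPM against 52.4, 52.5, 55.9, 49.9 and 49.7 CPM, a log2 fold change of −0.84 (adjusted p = 1.29e-08, edgeR). In both genes SCA7 mice stayed far below WT mice. Plcb4, another phospholipase C isoform of PCs, had a higher level per length than Plcb3 (82.8 against 20.4 CPM per kb of the longest transcript) and did not pass, at −0.10 with AAV-shSCR and −0.12 with AAV-shA4. Plcb1 did not pass either, at 0.20 and 0.16. Gna14, the nearest relative of Gnaq and Gna11 on the list, had 2 to 12 reads per library and was too low to test. None of the 4 genes of PIP2 supply passed the adjusted p with either vector.

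Of 6 genes on the list that regulate the IP3 receptor, 1 was called lower with either vector, and so was 1 of 6 other genes of IP3 metabolism. With AAV-shSCR 2 of each 6 passed the adjusted p. Car8, which lowers the affinity of the receptor for IP3, had a log2 fold change of −0.49 with AAV-shSCR (adjusted p = 2.86e-06, edgeR) and −0.45 with AAV-shA4 (adjusted p = 7.6e-06, edgeR). Itpka, the kinase that converts IP3 into IP4, had 68.6, 78.0, 71.5 and 75.6 CPM in WT mice and 51.0, 46.8, 46.6, 42.3 and 44.9 CPM in AAV-shSCR-treated SCA7 mice. With AAV-shSCR it differed by −0.66 on the log2 scale, and with AAV-shA4 by −0.67. The receptor relatives Itpr2 and Itpr3 leaned the other way without passing, at 0.19 (adjusted p = 0.0509, edgeR) and 0.16 (adjusted p = 0.134, edgeR) with AAV-shSCR.

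Downstream, Dgkz, which converts diacylglycerol, was called at −0.40 with AAV-shSCR and −0.42 with AAV-shA4. None of the 38 genes was called between the SCA7 groups or between WT mice at 9w. Between untreated WT mice at 25w and 9w, 3 of 38 were called, all higher at 25w, beside 3.23% of all genes called higher and 5.14% in either direction. They were Homer1 (0.42), Plcb2 (0.61, from levels near 1 CPM) and Itpr3 (0.76), of which Plcb2 was named after its value was seen.

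**Figure D3:**
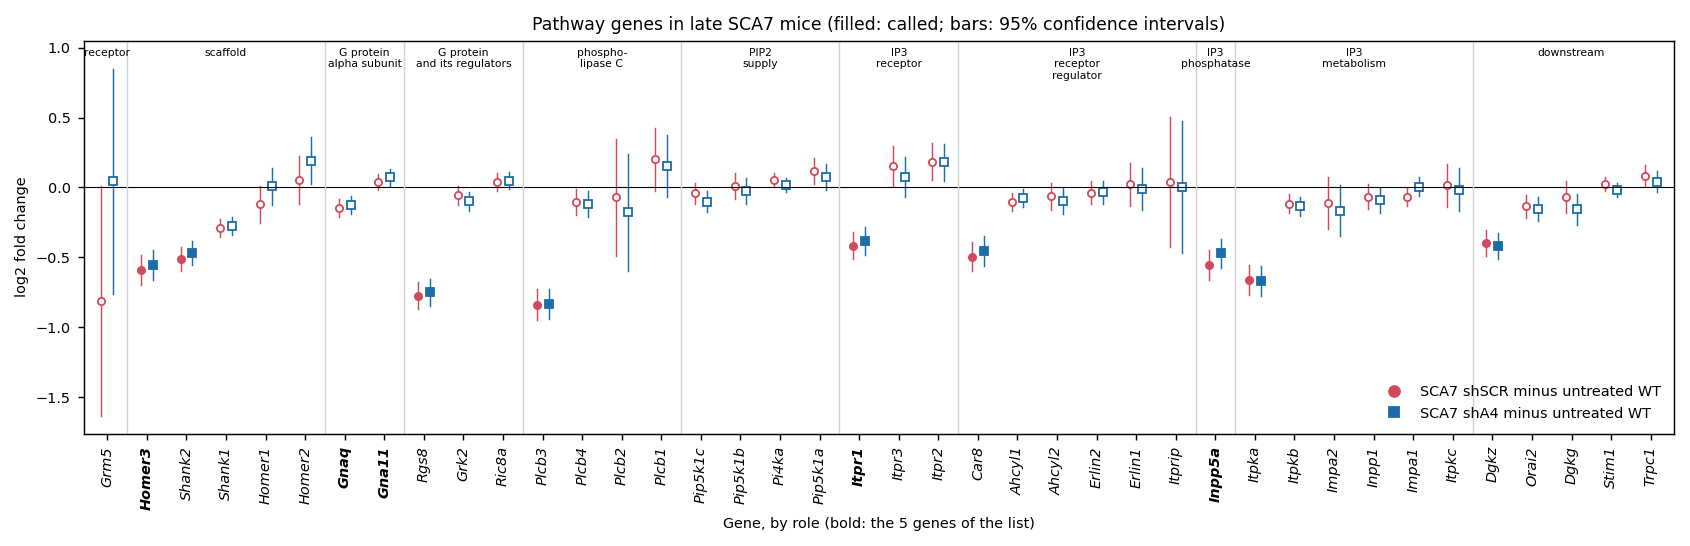
Log2 fold changes against untreated WT mice at 25w of the 5 genes (bold) and of 35 other pathway genes, by role, for AAV-shSCR-treated (circles) and AAV-shA4-treated (squares) SCA7 mice. Filled symbols mark called genes, all of them below 0, from −0.84 for Plcb3 to −0.38 for Itpr1, and lines are 95% confidence intervals.

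Markers of PCs moved in the same direction. All 7 (Pcp2, Pcp4, Calb1, Ppp1r17, Slc1a6, Skor2 and Lhx1) were lower with adjusted p under the limit in both SCA7 groups, 4 of them called with AAV-shSCR and 3 with AAV-shA4, at medians of −0.39 and −0.38. Their summed level was 2369 to 2665 CPM in untreated WT mice at 25w, 1669 to 1914 CPM with AAV-shSCR and 1691 to 2026 CPM with AAV-shA4, with none at 0. Some markers of other cell types fell as well. Of 5 oligodendrocyte genes 1 was called lower with either vector and 2 passed the adjusted p, and their summed level was 4883 to 5775 CPM in WT mice, 3592 to 4344 CPM with AAV-shSCR and 4039 to 4569 CPM with AAV-shA4, so neither SCA7 group overlapped with WT mice. All 5 genes of Bergmann glia and astrocytes had negative fold changes in both SCA7 groups, of which none was called and the adjusted p was passed by 1 gene (AAV-shSCR) or 2 genes (AAV-shA4). They summed to 2329 to 2474 CPM in WT mice, to 2105 to 2272 CPM with AAV-shSCR, without overlap, and to 2057 to 2465 CPM with AAV-shA4, with overlap. None of the 6 granule cell genes was called, though the adjusted p was passed by 1 (AAV-shSCR) or 2 of them (AAV-shA4), all lower. Fold changes were negative for 4 (AAV-shSCR) or 5 (AAV-shA4) of the 6, while Gabra6 leaned higher without passing, at 0.11 with either vector. All 3 genes of molecular layer interneurons had negative fold changes in both SCA7 groups, and none passed the adjusted p. Eomes of unipolar brush cells was called at −1.17 with AAV-shSCR and −1.06 with AAV-shA4 on the log2 scale. The part of PC number, general PC transcript loss or other cell types in the levels of the 5 genes was not tested, but each can be set against these markers within a library.

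The 5 genes were compared relative to the mean log2 CPM of the 7 markers, a choice made after the levels had been seen. Itpr1 had log2 ratios of 4.54, 4.53, 4.56 and 4.52 in the 4 WT mice and 4.51, 4.54, 4.56, 4.54 and 4.58 with AAV-shSCR, which did not separate the groups. The difference was 0.0074, with overlapping groups and an exact two-sided permutation p of 0.651. Homer3 differed from WT mice by −0.17 relative to the markers with AAV-shSCR and by −0.15 with AAV-shA4, without overlap (exact permutation p = 0.0159 and 0.00794). Single markers had log2 fold changes from −0.63 to −0.32 with AAV-shSCR and from −0.58 to −0.31 with AAV-shA4. Those of Homer3 and Inpp5a lay within these ranges, so the scale compares each gene with an average of unlike genes. The p-values on this scale are not adjusted and are among 25 computed for the 5 genes in 5 comparisons. Gnaq and Gna11 lay 0.28 and 0.46 higher relative to the markers with AAV-shSCR, which follows from their small changes beside the lower markers and is given with no test. The smallest p that 5 against 4 mice allow is 0.00794.

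Inpp5a was the gene for which the SCA7 groups differed on this scale. Its log2 ratio to the markers was 1.58, 1.64, 1.64 and 1.63 in WT mice, 1.48, 1.51, 1.52, 1.45 and 1.496 with AAV-shSCR, and 1.58, 1.56, 1.58, 1.51 and 1.55 with AAV-shA4. Both SCA7 groups lay below WT mice without overlap, with differences of −0.13 and −0.067 (exact permutation p = 0.00794 for both), and AAV-shA4-treated mice lay 0.066 above AAV-shSCR-treated mice, with overlap (exact permutation p = 0.0159). This p is not adjusted and is 1 of 25 computed for the 5 genes in 5 comparisons. It stayed between 0.00794 and 0.0317 with each mouse or each marker left out in turn, and the CPM of Inpp5a itself did not pass between these groups. The same value for the other 4 genes was between 0.0020 and 0.023, with exact permutation p of 0.413 to 0.984.

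**Figure D4:**
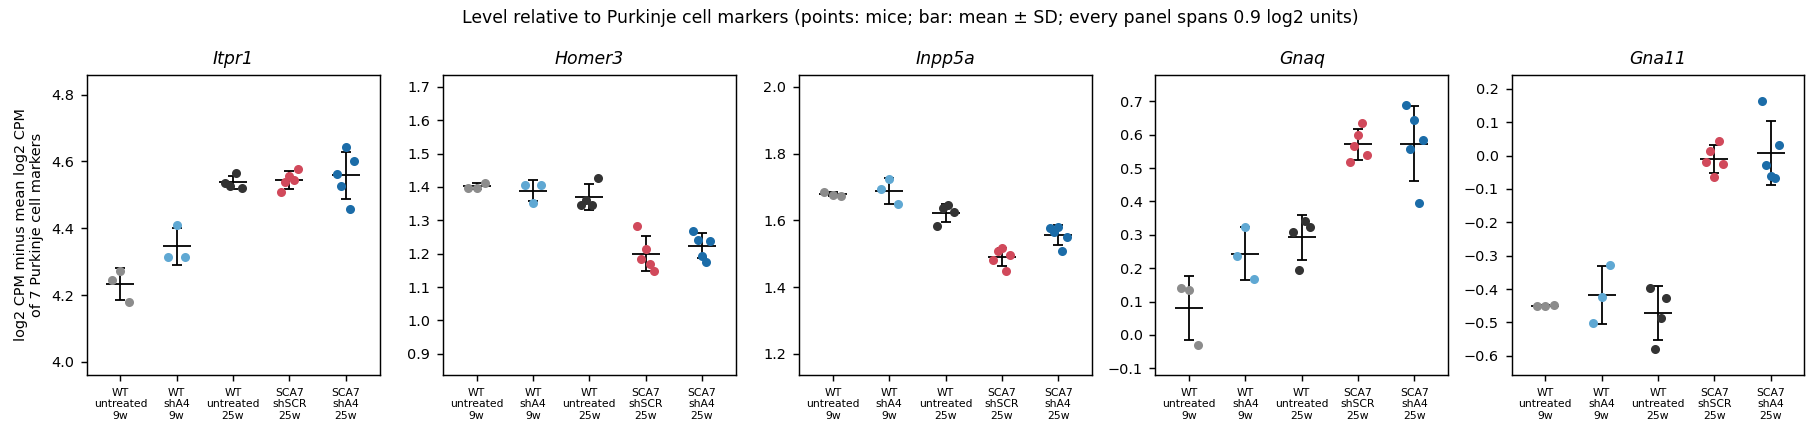
Log2 CPM of the 5 genes minus the mean log2 CPM of 7 PC markers in each of the 20 mice (points; bars are means and SD), where every panel spans the same range. At 25w Itpr1 overlaps between WT and SCA7 mice, Homer3 and Inpp5a are lower and Gnaq and Gna11 higher in SCA7 mice.

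In untreated WT mice Itpr1 lay 0.30 higher relative to the markers at 25w than at 9w, without overlap. Its exact permutation p was 0.0286, the smallest that 4 against 3 mice allow. Gnaq lay 0.21 higher (exact permutation p = 0.0571) and Inpp5a differed by −0.056 (exact permutation p = 0.0286), both without overlap. Homer3 and Gna11 overlapped. These p-values are not adjusted and are among the 25 computed for the 5 genes. Of all genes tested, 33.8% had levels without overlap between these groups. Of the 7 markers 0 passed the adjusted p between these groups, with a median log2 fold change of −0.025.

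Among single mice of the same group, the 5 genes varied together to unequal degrees. Over the 20 libraries, Pearson's r of the deviations from the group means was 0.86 for Itpr1 and Inpp5a, 0.85 for Homer3 and Inpp5a and 0.60 for Itpr1 and Homer3. The other pairs were lower, though Itpr1 and Gnaq, at 0.59, came close to Itpr1 and Homer3. Homer3 and Gna11 had 0.53 and Inpp5a and Gnaq 0.44. For Homer3 and Gnaq r was 0.22, for Inpp5a and Gna11 0.21, for Itpr1 and Gna11 −0.053 and for Gnaq and Gna11 −0.36. With the mean of the PC markers r was 0.94 for Inpp5a, 0.89 for Homer3, 0.78 for Itpr1, 0.40 for Gna11 and 0.24 for Gnaq. These are descriptions, since all values of a library share its depth, its normalization and its share of PCs.

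The genes whose log2 CPM was most like that of each gene over the 14 late libraries, by Pearson's r and out of 14861 other genes, were as follows. For Itpr1 they were Car8 (r = 0.995), Kcnma1 (0.991), which encodes the BK potassium channel, and Shisa6 (0.988), an AMPA receptor partner. For Homer3 they were Itpka (0.994), Doc2b (0.992) and Nsg1 (0.991), and for Inpp5a Dner (0.989), Cep76 (0.988) and Rmdn3 (0.988). The closest to Gnaq were Dlg2 (0.949), Slc38a1 (0.944) and Spcs3 (0.943), and among those closest to Gna11, at lower r, were Aida (0.853) and Hmgb1 (0.852). All these r values include the difference between SCA7 and WT mice, which the 14 libraries contain. Inpp5a ranked 8th for Itpr1 and 12th for Homer3 among these genes, while Gna11 had r = −0.58 with Gnaq.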

How the data were processed

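RNA of the cerebellum of 20 mice was sequenced by the authors as single reads of 50 bases from stranded mRNA libraries. The submitters' processing notes name bcl2fastq 2.20.0.422, cutadapt 1.10, Bowtie2 2.2.8, STAR 2.5.3a, HTSeq 0.6.1p1 and the build mm10, and the methods describe trimming, removal of ribosomal reads, mapping and counting on Ensembl genes. The deposited values are these raw counts per gene, not normalized, for 55401 genes, and were used as deposited. Reads were not mapped again here. Because counting noise is small at these depths, the spread between mice limits the precision, with a common biological coefficient of variation of 0.0790 in the late, 0.0729 in the early and 0.0784 in the untreated WT fit.

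Protein-coding genes of GENCODE M21 were tested with edgeR 4.0.16 in R 4.3.3 (TMM, quasi-likelihood test, not robust), after filterByExpr at a count of at least 10 and a total of at least 15. The 14 late libraries were fitted together, the 6 early ones apart, and the 7 untreated WT libraries apart. The Benjamini-Hochberg adjustment covered all genes tested, and calls needed an adjusted p under 0.05 together with a change of more than 1.3-fold. DESeq2 1.42.0 without shrinkage, other size factors, filters, gene sets and fits were alternatives. The methods were tested on simulated data. Levels relative to PC markers, on log2 of CPM with 0.1 added, were compared by exact two-sided permutation tests and were added after the levels had been seen, as was leaving out single markers.

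The genes named are the 5 in every comparison, from the list of 39 other pathway genes those known for PCs (here Plcb3, Plcb4, Car8, Itpka, Rgs8), 6 relatives (Homer1, Homer2, Itpr2, Itpr3, Plcb1, Gna14) and any other called between late groups, and the 3 genes most like each of the 5. Some genes under this rule are not reported here, though the counts of the list include them. The members and lists were chosen with earlier results of these data known. Mice of one group are separate animals, and no 2 libraries of a group agreed within sampling noise. Same-numbered mice were treated as unpaired. Of 19 same-numbered pairs, 4 had a correlation of deviations above 0.1 (range −0.23 to 0.49). Without a comparison with other pairs, this cannot exclude a factor that some of them share. RefSeq promoter windows were found for 4 of the 5 genes, and not for Itpr1.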

Additional observations from a re-analysis of the deposited data

Results flagged for a closer look

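One value lay apart from its group. In AAV-shSCR-treated SCA7 mice, Inpp5a had 367 CPM in replicate 4, while the other 4 mice had 404 to 419 CPM. The gap to the nearest mouse was 0.722 of the range of the 5 mice, which is above the limit of Dixon's test for 5 samples. This is 1 of 57 sets of values examined in this way, and chance marks about 1 in 20. Without this mouse the log2 fold change of Inpp5a stayed called lower against untreated WT mice, and no gene of the 5 was called between the SCA7 groups.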

How the results depend on the processing

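The number of the 5 genes called was 3 in both comparisons of SCA7 with WT mice and 0 in the others. It held under each scaling, filter, tool, robust estimation, gene set and choice of libraries tried, except for the fold limit and omitted single libraries. With the adjusted p alone it was 4 with AAV-shSCR, 4 with AAV-shA4 and 2 between untreated WT mice at 25w and 9w, as Gnaq and, in the last, Itpr1 were added, beside 15.5%, 13.6% and 23.0% of all genes tested. With each library left out in turn the count stayed at 3 with AAV-shSCR, was 2 to 3 with AAV-shA4 and 0 in the other comparisons. The sign of a small difference turned in a few of these fits. Gnaq between the SCA7 groups ran from −0.0046 to 0.035 on the log2 scale, and at 9w Inpp5a ran from −0.036 to 0.037, Homer3 from −0.065 to 0.046 and Gna11 from −0.0067 to 0.078. The number of all genes called at 9w ran from 1 without AAV-shA4-treated replicate 2 to 43 without AAV-shA4-treated replicate 3.

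Relative to the PC markers, leaving out Pcp4 turned Itpr1 to −0.027 with AAV-shSCR and to −0.0072 with AAV-shA4, and leaving out Pcp2, Skor2 or Lhx1 turned Gnaq between the SCA7 groups to −0.0026, −0.0031 and −0.0050, all without passing. Leaving out each mouse, Itpr1 ran from −0.0011 to 0.017 with AAV-shSCR, from −0.00014 to 0.046 with AAV-shA4 and from −0.0075 to 0.039 between the SCA7 groups, where Gnaq ran from −0.027 to 0.047 and Gna11 from −0.022 to 0.036.

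With the replicate number as a block, which the labels do not name as a pairing, the count of the 5 genes called was 3, 3, 0, 0 and 0 in the 5 comparisons, and all genes called at 9w went from 8 to 37. The cause of these shifts was not tested. With 3 mice a group at 9w, exact permutation cannot give a p below 0.1.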
